A study of Mus musculus with 8 samples.

Results

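Short interspersed elements (SINEs) were described here by the reads assigned to 35 subfamilies in mouse embryonic stem cells (mES cells) carrying a METTL3 degron. METTL3 places N6-methyladenosine on RNA, and its FKBP12 tag causes the protein to be degraded when the small molecule dTAG-13 is added. There were 8 total RNA libraries, 4 from cells given dTAG-13 for 26 h and 4 from untreated cells, with 2 libraries from clone C3 and 2 from clone H5 under each condition. All libraries came from Cast x 129S cells grown on inactivated mouse fibroblasts, with a TetOn promoter in place of one Xist promoter and no doxycycline added. The labels put that promoter on the 129S allele, whereas the study's text places clones C3 and H5 in a line inducible from the Cast X chromosome. Each clone is a single derived line. The labels name total RNA as the molecule, and so do the study's methods, whereas the extraction text in the labels describes RNA from chromatin.

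The members were all rows of the deposited table whose class was SINE with a mean count of at least 10. These were 35 of the 1097 rows for transposable elements and other repeats, and of 18694 rows in all including 17597 genes. The minimum left out no row of the class, because the lowest member, FAM, had a mean count of 36.3. The mean count is the authors' mean over all libraries, treated and untreated, of reads divided by a size factor for each library. The remaining columns of the table hold the authors' own comparison of treated with untreated cells and were not used. The mean count has no value per library, so the spread between libraries could not be given, the treatment groups and clones could not be compared, and no order of subfamilies could be tested. Every value below describes the pooled cells. Summed mean counts came to 16292717 normalised reads, of which 10.6% were in repeat rows and 3.96% in SINE subfamilies.

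SINEs are short retrotransposons that encode no protein and are copied by the enzymes of LINE elements. They are transcribed by RNA polymerase III from a promoter inside the element, and many copies also lie within introns and untranslated regions of genes and are carried in their transcripts. Mouse B1 elements are put in the Alu family by the annotation. B2 and ID elements derive from transfer RNAs, B4 elements combine an ID-like and a B1-like part, and MIR and Deu elements are old families shared across mammals. The reads of a subfamily were summed over its copies. How reads on copies within exons and untranslated regions were divided between gene rows and subfamily rows was not tested, so such copies may be missing from the totals. The counts were divided neither by copy number nor by length. The values therefore describe where the reads fell and not how active one copy was.

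A relative of the ID family is printed to show what such an element looks like. It is from the GENCODE vM21 transcripts of GRCm38, the build of mm10. Bc1 is a neuronal RNA whose first part is an ID element, and it lies on the plus strand at chr7:144914470-144914637. Capitals mark matches to the cores of the 2 internal promoter motifs of RNA polymerase III, searched on both strands, the A box as GCNNAGTGG and the B box as GGTTCGNNC, which do not overlap.
Bc1: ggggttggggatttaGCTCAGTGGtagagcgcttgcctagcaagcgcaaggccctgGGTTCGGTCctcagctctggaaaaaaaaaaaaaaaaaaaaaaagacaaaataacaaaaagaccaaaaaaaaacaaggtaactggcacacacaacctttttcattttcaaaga

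In Bc1 the A box match covered positions 16 to 24 and the B box match positions 57 to 65, counted from the first base. Of 32851 RefSeq promoter windows of 300 bases on GRCm38.p6, 5.61% held the A box letters and 1.33% the B box letters on either strand. Bc1 was not listed among the genes of the table, so no mean count can be given for it.

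SINEs received more reads than any other class of repeat. Their 35 subfamilies made up 3.19% of repeat rows and held 645539 reads, 37.6% of the 1718486 reads in repeat rows with a mean count of at least 10. LTR elements followed with 23.4% of those reads from 521 subfamilies, LINE elements with 14.2% from 143 and DNA transposons with 2.52% from 166. One further row, 7SK, a small nuclear RNA that the repeat annotation lists with its copies, held 16.0%, and without it the SINE share was 44.7%. Without the most abundant row of every class it was 48.8%. Only uniquely placed reads were counted, and how many reads each class lost by this was not tested.

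The difference between classes was also seen for single subfamilies. The median mean count was 9676 for SINEs, 497 for LINEs, 112 for LTRs and 58.2 for DNA transposons among subfamilies with at least 10. A mean count of at least 1000 was reached by 33 of 35 SINE subfamilies (94.3%), by 45 of 157 LINE subfamilies (28.7%), by 65 of 646 LTR subfamilies (10.1%) and by 10 of 192 DNA transposon subfamilies (5.21%). SINEs filled 12 of the 20 highest places among repeat rows and 26 of the 50 highest. These are descriptions, since subfamilies differ in copy number and are not replicates of a class.

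**Figure D1:**
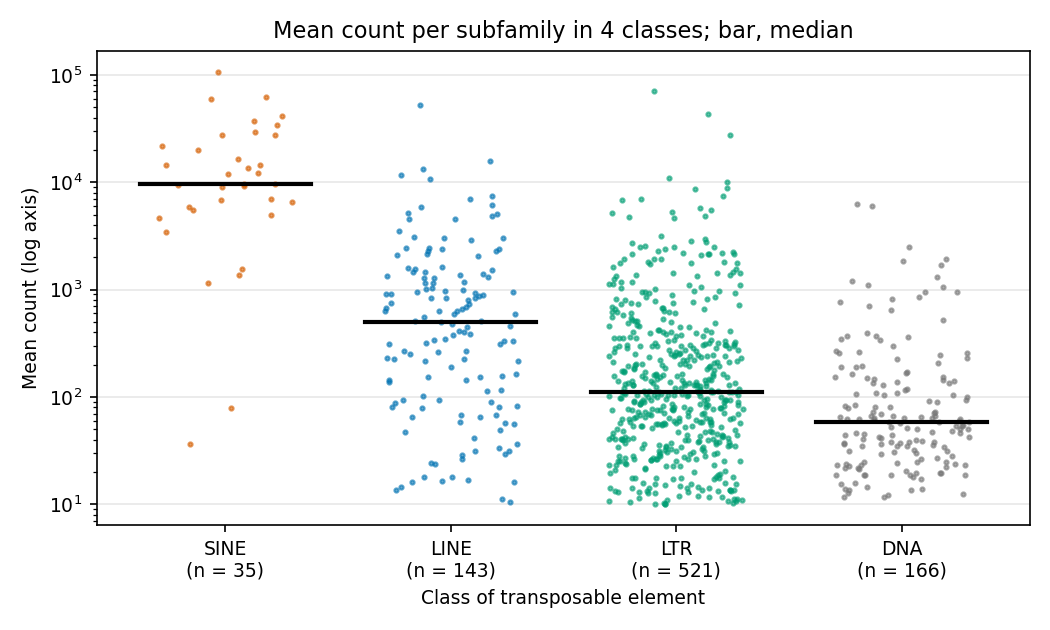
Mean count per subfamily (log axis) for the SINE, LINE, LTR and DNA classes, 1 point per subfamily with a mean count of at least 10, spread sideways at random; bars are medians. The SINE median of 9676 lies above the LINE median of 497, the LTR median of 112 and the DNA transposon median of 58.2.

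B2 elements held the largest part of SINE reads. The B2 family took 46.2% of them (95% Wilson interval 46.1 to 46.4) from 5 subfamilies, Alu (B1) 29.2% (29.1 to 29.3) from 16, B4 17.6% (17.5 to 17.7) from 4, MIR 4.22% (4.17 to 4.27) from 4, ID 2.50% (2.47 to 2.54) from 4 and Deu 0.223% (0.212 to 0.235) from 2. The intervals take the summed mean counts as numbers of reads, so they only approximate counting error and do not cover variation between libraries. B2 held 1.58 times as many reads as Alu and 18.5 times as many as ID. The order changed when families were compared by the median of their subfamilies. B2 was still highest at 59608, followed by B4 at 30923, Alu at 10828, MIR at 7082, ID at 4068 and Deu at 721.

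Among B2 subfamilies, B2_Mm1a stood apart with a mean count of 105625. It was the highest of all SINE subfamilies and the 2nd highest repeat row after 7SK, and only 1 gene, Hsp90aa1, which encodes a cytosolic chaperone, had a higher mean count, 107305. B2_Mm1a was 1.68 times as high as B2_Mm1t at 62726 and 2.55 times as high as B2_Mm2 at 41397. The 3 subfamilies with B2_Mm in their name held 70.3% of B2 reads. The other two, B3 and B3A, had mean counts of 59608 and 29193. B3 was close to B2_Mm1t, a ratio of 1.05 between B2_Mm1t and B3. The highest member of the family was 3.62 times the lowest. This range was wider than in B4 (2.58) and MIR (2.79). It was narrower than in ID (6.03), Deu (17.2) and Alu (760.3).

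**Figure D2:**
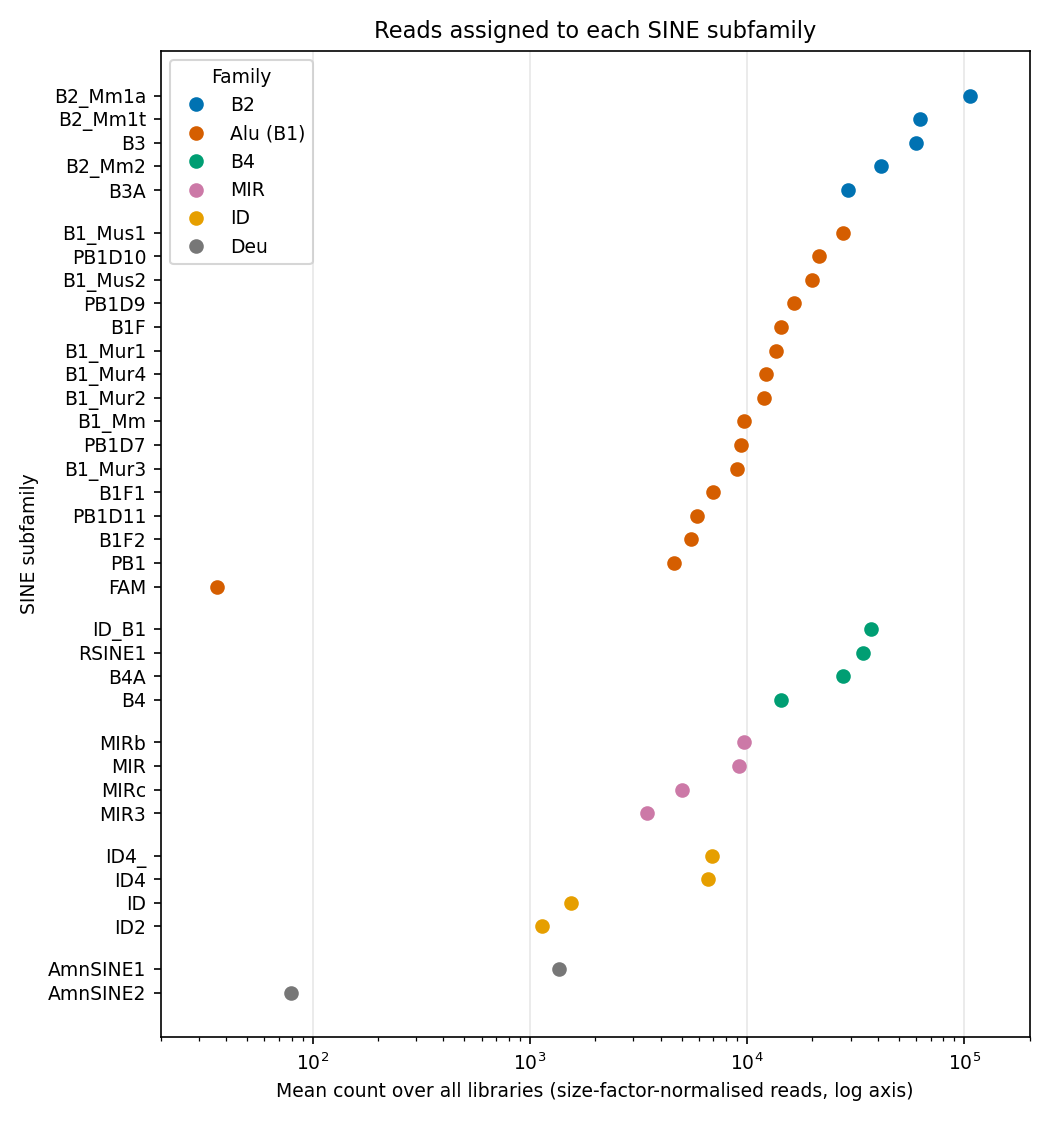
Mean count over all libraries (log axis) of the 35 SINE subfamilies, 1 point per subfamily, coloured and grouped by family. B2 subfamilies lie between 29193 and 105625, and all Alu (B1) subfamilies except FAM between 4611 and 27606.

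Reads of the Alu (B1) family were spread over more subfamilies than those of any other family. Its highest member, B1_Mus1, held 14.6% of the family, with a mean count of 27606. PB1D10 followed at 21534, B1_Mus2 at 19875, PB1D9 at 16478 and B1F at 14390. The next were B1_Mur1 at 13589, B1_Mur4 at 12183 and B1_Mur2 at 11981. These lay close together, and their neighbours in the order cannot be told apart without a spread between libraries. B1_Mm, PB1D7, B1_Mur3, B1F1 and PB1D11 lay between 9676 and 5874. B1F2 at 5537, PB1 at 4611 and FAM at 36.3 were lowest. FAM, a fossil Alu monomer, had 0.0192% of the reads of the family, and the other 15 subfamilies covered a range of 5.99-fold.

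When B1 subfamilies were grouped by name, the PB1 and Mus-named groups held similar numbers of reads and the B1F group the fewest. The PB1 group, proto-B1 elements that predate B1 proper, held 57885 reads over 5 subfamilies (30.7% of the family). The subfamilies named for the genus Mus (B1_Mm, B1_Mus1 and B1_Mus2) held 57157 over 3 (30.3%), the 4 B1_Mur subfamilies 46708 (24.8%) and the 3 B1F subfamilies 26907 (14.3%). By median of their subfamilies the Mus-named group was highest at 19875, followed by B1_Mur at 12082, PB1 at 9388 and B1F at 6980. Within the Mus-named group B1_Mm had 9676 reads, and B1_Mus1 was 2.85 times as high. The B1_Mur subfamilies were the most alike, with the highest 1.52 times the lowest, and the PB1 subfamilies the least, with PB1D10 4.67 times as high as PB1. Only uniquely placed reads were kept, so reads that fit several near-identical copies, as young subfamilies have, were not counted, and how many were lost in each subfamily was not tested.

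B4 elements held few subfamilies, each with many reads. ID_B1, a row that joins the names of both its parts, had a mean count of 37179. RSINE1 had 34263, B4A 27582 and B4 itself 14398. ID_B1 was 1.09 times as high as RSINE1 and 2.58 times as high as B4. Because ID_B1 opens with the letters of the ID family, its placement decides how the reads are divided between the families. With families read from the start of the subfamily name, B4 held 11.8% of SINE reads instead of 17.6%, and ID held 8.26% instead of 2.50%.

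**Figure D3:**
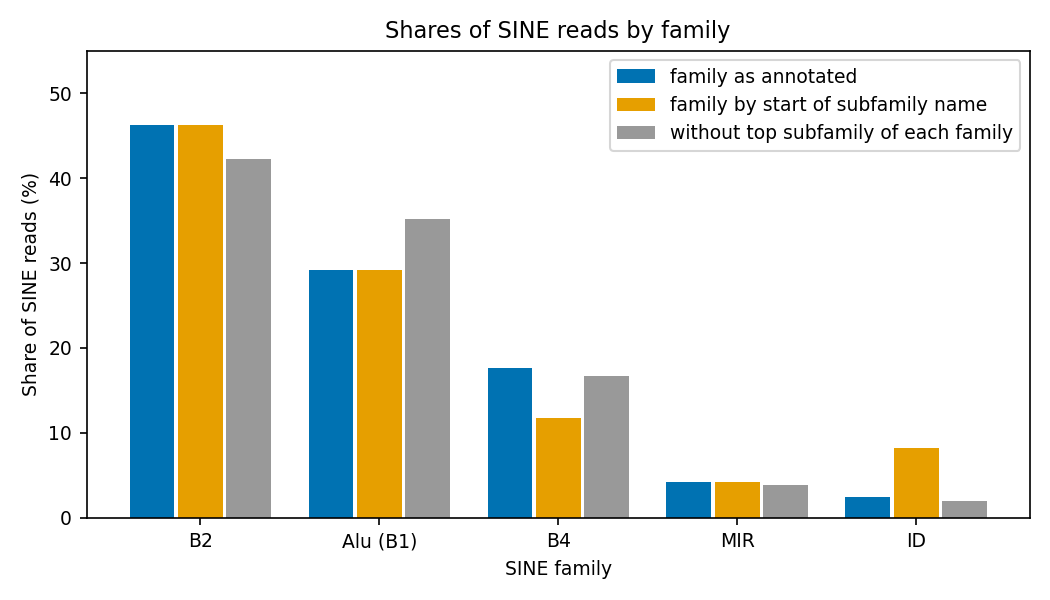
Share of SINE reads (%) held by 5 families with the family taken from the annotation, with it taken from the start of the subfamily name, and without the most abundant subfamily of each family. ID rises from 2.50% to 8.26% and B4 falls from 17.6% to 11.8% when ID_B1 is placed by its name, and B2 stays highest in each setting.

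The MIR, ID and Deu families held fewer reads. MIRb had a mean count of 9642, MIR 9167, MIRc 4998 and MIR3 3458, and MIRb was 1.05 times as high as MIR. In the ID family ID4_ at 6890 and ID4 at 6592 together held 83.4% of reads, whereas ID had 1543 and ID2 1142. The ratio of ID4_ to ID4 was 1.05 and that of ID4_ to ID2 was 6.03. Of the Deu elements, AmnSINE1, an element conserved across amniotes, had a mean count of 1363 and AmnSINE2 one of 79.4. FAM and AmnSINE2 were the 2 members with a mean count below 100. They ranked 698th and 534th of the repeat rows, whereas each of the other 33 members ranked 147th or higher.

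Few subfamilies of other classes held as many reads as the higher SINE subfamilies. The most abundant LTR subfamilies were MMETn-int at 70915, RLTR1B-int at 42939 and ETnERV-int at 27763, the most abundant LINE subfamilies L1Md_T at 52411, L1Md_F2 at 15860 and L1Md_A at 13183, and the most abundant DNA transposons URR1B at 6209, URR1A at 5999 and MER2 at 2468. B2_Mm1a was 1.49 times as high as MMETn-int. B2_Mm1a, B2_Mm1t and B3 lay above L1Md_T, and 12 SINE subfamilies lay above L1Md_F2.

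The genes listed for RNA polymerase III and its factors were all measured. There were 24 of them, each with a mean count of at least 10. Their levels, compared per kb of annotated exon, ran from 18.6 to 1076 with a median of 288. Some ranks within the gene lists depend on the length used, as given below. The highest were Polr1c at 1076 and Polr1d at 852 reads per kb, subunits shared with RNA polymerase I, and Polr3g at 478. The lowest were Polr3gl at 18.6, Tbp, the TATA-binding protein, at 59.3, and Brf1, a subunit of initiation factor TFIIIB, at 76.9. Polr3g and Polr3gl encode alternative forms of one subunit, and Polr3g was 25.7 times as high per kb as Polr3gl. Maf1, the repressor of RNA polymerase III, had 302 reads per kb.

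The list named SINE RNA partners also holds genes of the signal recognition particle, and binding to SINE RNA was not tested for any of its genes. Of its 14 genes 13 were measured, all but Srp54b, with a median of 249 reads per kb. The highest were Ssb, the La protein that binds the ends of new RNA polymerase III transcripts, at 2496, Hnrnpu at 1328 and Srp14, which pairs with Srp9 in the signal recognition particle, at 857. Srp9 itself had 197. Their mean counts were 1091 for Srp9 and 1024 for Srp14, divided by 5541 and 1195 bases of exon. The lowest were Adar, an enzyme that edits adenosines in paired RNA, at 98.7, and the signal recognition particle genes Srp54a at 127 and Srp54c at 139. The 2 last are near-identical copies, so their values are uncertain.

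Chromatin regulators known at SINEs were measured for 13 of 14 listed names. Lsh, the name without a row, is an older symbol of Hells, which has a row. Their median was 835 reads per kb. Trim28, a corepressor of transposable elements, was highest at 4534, followed by Hells, a chromatin remodeller, at 1228 and Chd4, a subunit of the ChAHP complex that binds SINEs, at 1137. Pogz at 79.7, the histone methyltransferase gene Suv39h1 at 86.6 and Adnp, another subunit of ChAHP, at 276 were lowest. Ctcf, whose binding sites are often carried by B2 elements, had 1104 reads per kb.

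**Figure D4:**
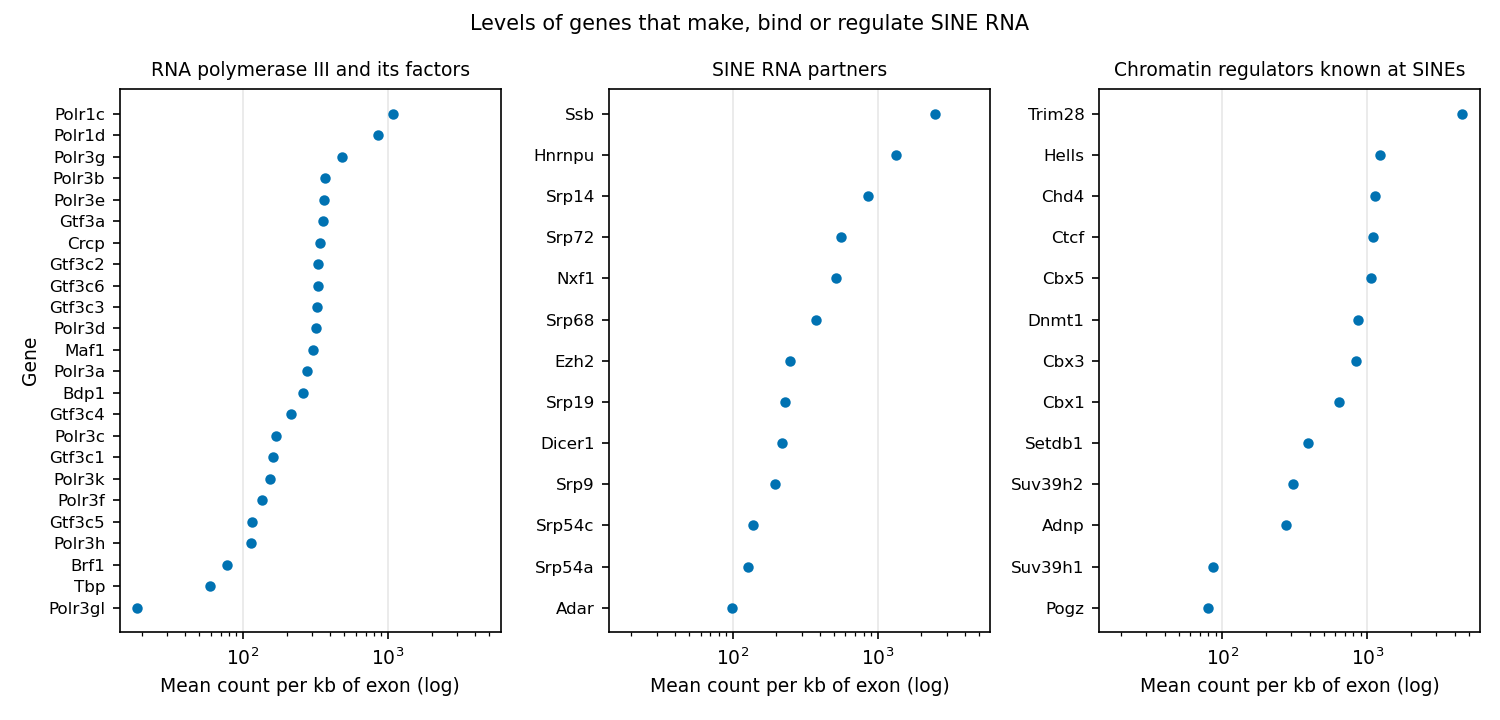
Mean count per kb of annotated exon (log axis) of genes of RNA polymerase III and its factors, of the list named SINE RNA partners and of chromatin regulators known at SINEs, 1 point per gene. Ssb at 2496 and Trim28 at 4534 are the highest of their lists, and Polr3gl at 18.6 is the lowest of all.

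The labelled cell type was checked against its markers. All 8 stem cell markers were measured, with mean counts from 1415 for Klf4 to 11934 for Pou5f1 and a median of 3038 reads per kb. Of the 7 fibroblast markers, Fn1 (4941) and Sparc (3052) had the highest mean counts, and both are also made by other cells. Thy1 had 116, and Col1a1, Col1a2, Col3a1 and Postn had 19.8, 13.8, 8.38 and 0.768. How many of the SINE reads came from feeder cells was not tested.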

How the data were processed

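Total RNA from 8 libraries was measured, 4 treated with dTAG-13 and 4 untreated. The authors removed ribosomal RNA reads with bowtie2, aligned read pairs to mm10, with sites that differ between the strains masked, using STAR, kept unique alignments, removed duplicates with Picard and counted genes and repeat subfamilies with TEtranscripts at its default settings. Whether counting used strand is uncertain. The signal used here was deposited by the authors as the mean over all libraries of size-factor-normalised reads. Its sum over rows is given in the report and is not the depth of any single library. The other 5 columns of the table hold the authors' comparison (log2 fold change, standard error, statistic, p-value and adjusted p-value) and were not used.

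Row names were split into subfamily, family and class. Sums, shares, medians and Wilson 95% intervals were computed in Python 3.11.15 with SciPy 1.17.1. Shares were also computed on simulated rows built to hold set family shares, which checks the code and not the coverage of the intervals. Gene levels were divided by the union of annotated exons in GENCODE vM21. Rmrp, with more than 1 record, had no length. No test was made. All members of families with 6 members or fewer were named, and in the Alu family the 8 highest and 3 lowest, besides subfamilies that stand in a name group. Of other classes the 3 highest subfamilies were named, and of each gene list the 3 highest and 3 lowest. Hsp90aa1, 7SK, Maf1, Srp9 and Ctcf were named after their values were seen. The members and lists were chosen with earlier results of these data known. Subfamily consensus sequences were not used here, and one sequence related to B1 elements is not reported here.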

Additional observations from a re-analysis of the deposited data

How the results depend on the processing

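Of 50 recomputed values, 34 stayed within the counting interval or, for medians, did not change, and 16 moved. Many of the 34 could not have differed. The minimum of 10 left out no SINE row, so values within SINEs rested on the same rows without it. A minimum of 100 left out only FAM and AmnSINE2, so medians and top-subfamily shares of B2, B4, MIR and ID were fixed. The RNA gene Rpph1 has 319 bases by either length. Without the most abundant subfamily of each family, B2 held 42.2% of SINE reads, Alu 35.2%, B4 16.7%, MIR 3.85% and ID 2.03%, in the same order. With families read from the start of the subfamily name, B4 held 11.8% and ID 8.26%. The SINE share of repeat reads was 37.9% with a minimum mean count of 100, 3.96% with all genes in the denominator and 48.8% without the most abundant row of each class. It was 44.7% without the 7SK row and 48.3% among the SINE, LINE, LTR and DNA classes, both chosen after seeing the data. A minimum of 100 raised the Alu median to 11981, since FAM was left out. Divided by the longest transcript, the medians per kb were 340.0 for RNA polymerase III genes, 405 for the list named SINE RNA partners and 1089 for chromatin regulators. Ranks changed as well. By that length Polr1d (1921) lay above Polr1c (1866) and Polr3k (163) below Brf1 (183). Cbx3 (1711) lay above Hells (1508), and Chd4 (1361) below Ctcf (1418). No paired analysis was possible because the mean count pools all libraries, and for the same reason no library could be left out.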

Other observations

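RNAs known to be made by RNA polymerase III were also abundant, whereas how many SINE reads came from that polymerase was not tested. Rpph1, the RNA of RNase P, had a mean count of 12323, or 38630 reads per kb, and Rmrp, the RNA of RNase MRP, had 7163. The 7SK row had 274706 reads, more than all 16 Alu (B1) subfamilies together, at 188694. Of the 7 related RNA genes listed, the other 5 had no gene row.

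MER131, which the annotation marks as a doubtful SINE and which is not a member, had a mean count of 43.3, between FAM and AmnSINE2. Among repeats outside the classes compared, the satellite MMSAT4 had 65604 reads, higher than 34 of the 35 SINE subfamilies, and MurSatRep1, of unknown class, had 36068.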
